A study of Mus musculus with 6 samples.

Results

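A set of 8 genes that had been put forward as possible transcripts of the injected Lewis lung carcinoma (LLC) cells were followed in tumors of mice with and without interstitial pneumonia (IP). The members, 8 of the 31130 genes counted, were the homeobox genes Rhox5, Rhox2d and Rhox2h, the proliferin genes Prl2c2 and Prl2c3, the chromatin gene Hmga2, the ETS factor gene Etv4 and the phosphatase gene Dusp9. They were found by their gene symbols, and each symbol matched 1 row in every table. The list had been drawn up with the levels of these same tumors and the difference between the groups in view, so levels, folds and counts of the 8 genes are given as a description and carry no p-value.

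Tumor tissue was collected on day 21 from the LC model (lung cancer alone, n = 3) and the IP + LC model (lung cancer with IP, n = 3). All mice were female C57BL/6 animals of 6 to 8 weeks, labelled as wild type, and all received LLC cells in the left lung on day 14. The line comes from a lung tumor of this mouse strain, and the cells here carried green fluorescent protein, whose transcript is not in the tables. On day 0, the mice of the IP + LC model were given bleomycin, which injures the lung and leads to fibrosis, by oropharyngeal aspiration at 2.0 mg/kg body weight, and those of the LC model were given saline. The RNA was a bulk extract of tumor and the lung cells in it, so that fewer cells of a type and less RNA per cell cannot be told apart. No library of cultured LLC cells, healthy lung or fibrotic lung without a tumor was analysed here, and whether the 8 transcripts came from LLC cells was not tested.

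Rhox5, also known as Pem, belongs to a cluster of homeobox genes on the X chromosome that act in the placenta and the gonads, and its transcript is known from many mouse tumor lines. Proliferins are hormones of the prolactin family that trophoblast giant cells secrete during pregnancy, and Hmga2 is a chromatin protein of the embryo that is low in most adult tissues and returns in many tumors. Such placental and oncofetal genes can mark tumor cells in a tissue whose own cells leave them silent, provided that nothing else in the tissue switches them on.

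Transcripts were counted by unique molecular identifiers (UMIs) at their 3′ ends, which gave 592733 to 1379759 UMIs per LC library and 1336919 to 1631066 per IP + LC library. LC replicate 1 was the smallest library and stood apart from the other LC tumors for most of the 8 genes, and results that rest on it are given with and without it. Levels are counts per 1000000 UMIs after TMM scaling (CPM), in which 3 UMIs corresponded to 5.17 CPM in LC replicate 1 and to 1.75 to 2.54 CPM in the other 5 libraries. Each library was 1 tumor sample, the labels did not tie samples to animals, and errors and p-values measure the spread between these samples.

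The summed level of the 8 genes was 635 CPM in LC replicate 1, 95.6 CPM in LC replicate 2 and 48.3 CPM in LC replicate 3. In the IP + LC tumors it was 1047, 1069 and 709 CPM in replicates 1, 2 and 3. Every IP + LC tumor was above every LC tumor, although LC replicate 1 lay close to the lowest IP + LC tumor. The mean was 942 ± 202 CPM (SD, n = 3) in the IP + LC group and 260 ± 326 CPM (SD, n = 3) in the LC group, a ratio of 3.63. Against LC replicates 2 and 3 alone the ratio was 13.1, so the size of the difference depended on 1 tumor. LC replicate 1 reached 67.5% of the IP + LC mean.

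**Figure D1:**
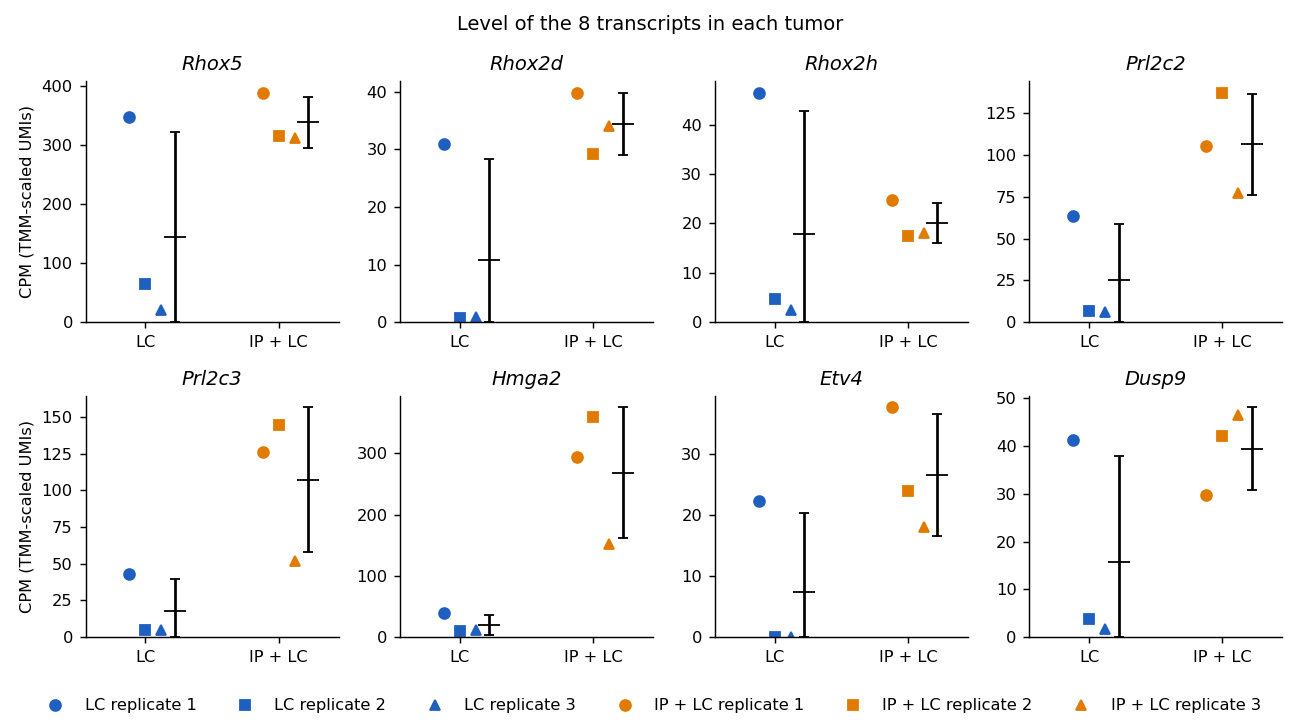
Level of each of the 8 transcripts in CPM (linear axes from 0) in the 3 LC tumors (blue) and the 3 IP + LC tumors (orange); symbols mark the replicate, and the black dash and bar give the mean and the SD, cut off at 0. LC replicate 1 (blue circle) lies far above the other LC tumors for Rhox5 (348 CPM against 64.2 and 21.2), whereas for Hmga2 it stays at 39.6 CPM beside 152 to 360.1 CPM in the IP + LC tumors.

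The 3 Rhox genes are shown first, with the 250 bases before their transcription start, because their upstream sequences share a motif that the windows of the other members lacked. Sequences are from RefSeq on GRCm38.p6, which held an upstream window for 5 of the 8 genes, and are written 5′ to 3′ on the gene's own strand. The windows are chrX:37754358-37754607 on the + strand for Rhox5, chrX:37493160-37493409 on the + strand for Rhox2d and chrX:37673278-37673527 on the − strand for Rhox2h. Capitals mark CTTCCGG, the reverse complement of the ETS factor motif CCGGAAG, and CCAAT or its reverse complement ATTGG, a core promoter motif.
Rhox5: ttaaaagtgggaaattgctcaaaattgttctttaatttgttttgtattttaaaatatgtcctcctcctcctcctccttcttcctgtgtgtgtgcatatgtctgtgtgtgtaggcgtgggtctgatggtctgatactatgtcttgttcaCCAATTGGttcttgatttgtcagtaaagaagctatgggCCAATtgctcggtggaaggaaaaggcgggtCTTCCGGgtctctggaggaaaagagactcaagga
Rhox2d: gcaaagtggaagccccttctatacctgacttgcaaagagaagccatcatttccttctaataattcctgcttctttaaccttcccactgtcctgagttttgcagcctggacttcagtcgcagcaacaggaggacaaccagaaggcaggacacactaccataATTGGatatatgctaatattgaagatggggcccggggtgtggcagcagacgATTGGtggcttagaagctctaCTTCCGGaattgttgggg
Rhox2h: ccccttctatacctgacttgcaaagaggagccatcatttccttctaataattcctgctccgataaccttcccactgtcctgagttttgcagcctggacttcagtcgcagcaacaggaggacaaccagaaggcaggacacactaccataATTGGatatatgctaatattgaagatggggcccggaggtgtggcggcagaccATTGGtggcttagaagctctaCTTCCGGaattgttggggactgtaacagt
The ETS letters ended 28 bases before the start of Rhox5, 12 bases before that of Rhox2d and 23 bases before that of Rhox2h. On either strand, CCGGAAG was in 6.91% of the windows of this length before 32851 gene starts, and CCAAT was in 33.8%. In Rhox5, a CCAAT and an ATTGG overlap in the run CCAATTGG. The windows of Rhox2d and Rhox2h are copies of one another, identical at 232 of 238 aligned bases (97.5%), so that they do not count as independent matches. The motifs were chosen after the windows had been read, and a match is a run of letters that says nothing about binding. The start in RefSeq lies 50234 bases upstream of the Rhox5 gene as annotated in GENCODE (chromosome X, 37804842 to 37808876, + strand), so the Rhox5 window lies outside that gene model.

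Rhox5, the founding gene of the cluster, was counted with 202, 82 and 25 UMIs in LC replicates 1, 2 and 3 and with 537, 540 and 430 UMIs in IP + LC replicates 1, 2 and 3. After scaling, the LC levels were 348, 64.2 and 21.2 CPM and the IP + LC levels were 389, 315 and 312 CPM. The groups overlapped, because LC replicate 1 lay inside the narrow IP + LC range. The IP + LC tumors differed by a factor of 1.25 between highest and lowest and the LC tumors by a factor of 16.4. The log2 fold change was 1.29 ± 0.76 (SE), and the IP + LC mean was 7.93 times that of LC replicates 2 and 3.

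Rhox2d (chromosome X, 37493428 to 37497623, + strand), a placental copy of the cluster, had 18, 1 and 1 UMIs in the LC tumors and 55, 50 and 47 UMIs in the IP + LC tumors. The levels were 31.0, 0.783 and 0.847 CPM in LC and 39.9, 29.2 and 34.1 CPM in IP + LC. LC replicate 1 again lay between the IP + LC tumors, while the other LC tumors held a single molecule each. Over the pooled counts, the IP + LC tumors were 41.8 times as high as LC replicates 2 and 3, with a 95% counting interval of 11.4 to 348 that covers counting error only. The log2 fold change over all 6 tumors was 2.21 ± 0.84 (SE).

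Rhox2h (chromosome X, 37668989 to 37673277, − strand) had 27, 6 and 3 UMIs in the LC tumors and 34, 30 and 25 UMIs in the IP + LC tumors. In LC replicate 1 it was at 46.5 CPM, above each IP + LC tumor (24.7, 17.5 and 18.2 CPM), and in LC replicates 2 and 3 it was at 4.70 and 2.54 CPM. It was the member with the smallest log2 fold change, 0.55 ± 0.79 (SE), and the sign of that value turned to −0.027 without LC replicate 2 and to −0.068 without LC replicate 3. Without LC replicate 1 it was 2.43.

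The Rhox2 copies are hard to tell apart by reads. The transcripts of Rhox2d and Rhox2h were identical at 655 of 685 aligned bases (95.6%), and 34.3% of the 81-base windows in the last 500 bases of Rhox2d and 25.7% of those of Rhox2h also occurred in another Rhox2 gene. Rhox2d made up 40.0% of the UMIs of the pair in LC replicate 1 (18 of 45, exact 95% interval 25.7% to 55.7%) and 61.8%, 62.5% and 65.3% in the IP + LC tumors. The intervals of counting error overlapped, since that of IP + LC replicate 1 began at 50.9%. Summed with Rhox2g, the only other Rhox gene with enough UMIs for a test, the 3 copies came to 103, 8.62 and 5.93 CPM in the LC tumors and to 81.2, 65.4 and 62.4 CPM in the IP + LC tumors. The sum was thus highest in an LC tumor.

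Of the 12 Rhox genes in the tables, 8 had too few UMIs for a test, with at most 3 UMIs in any library. Apart from Rhox12 these were Rhox3 and Rhox4 genes, which occur as several close copies, so that their reads too may be lost or split in counting, and Rhox2a, Rhox2b, Rhox2c and Rhox2e were not analysed here. LC replicate 1 and IP + LC replicate 1 held 0 UMIs of these 8 genes, and LC replicate 3 held 8 UMIs spread over 5 of them. Rhox2g, with 15, 4 and 3 UMIs in LC and 23, 32 and 14 in IP + LC, had a log2 fold change of 0.95 ± 0.71 (SE) and did not pass edgeR's quasi-likelihood test over all genes (Benjamini-Hochberg adjusted p = 0.354). Without LC replicate 1, its adjusted p in the same edgeR test was 0.000996.

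Prl2c2 and Prl2c3 encode proliferins, secreted hormones of the placenta that act on blood vessels. Prl2c2 (chromosome 13, 12996125 to 13005383, − strand) had 37, 9 and 7 UMIs in the LC tumors and 145, 235 and 106 UMIs in the IP + LC tumors. Its levels were 63.7, 7.05 and 5.93 CPM in LC and 105, 137 and 77.0 CPM in IP + LC. Here the groups did not overlap, with LC replicate 1 under the lowest IP + LC tumor. The log2 fold change was 2.35 ± 0.71 (SE).

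Prl2c3 (chromosome 13, 12790816 to 12800079, − strand) had 25, 6 and 6 UMIs in the LC tumors and 174, 247 and 71 UMIs in the IP + LC tumors. The levels were 43.0, 4.70 and 5.08 CPM in LC and 126, 144 and 51.6 CPM in IP + LC. The groups did not overlap, and IP + LC replicate 3 was at 38.1% of the mean of the other IP + LC tumors. The log2 fold change was 2.94 ± 0.73 (SE).

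Reads cannot well separate these copies either. The transcripts matched at 838 of 842 aligned bases (99.5%), and 91.9% of the 81-base windows in their last 500 bases also occurred in other genes, namely in each other, Gm7040, Prl2c1 or Prl2c5. Their sum, which does not depend on how reads were split between the pair, was 107, 11.8 and 11.0 CPM in the LC tumors and 231, 281 and 129 CPM in the IP + LC tumors. Means were 43.2 ± 55.1 and 214 ± 77.9 CPM (SD, n = 3 each), a ratio of 4.95, or 18.8 against LC replicates 2 and 3. Of the other 20 prolactin family genes in the tables, none had enough UMIs for a test, and the highest count in any library was 7. Prl2c5, a close relative with 96.6% identity to Prl2c2, had 2 UMIs in each LC tumor and 4, 6 and 6 UMIs in the IP + LC tumors.

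The window before Prl2c3 (chr13:12800080-12800329, − strand) is shown because it had none of the Rhox motifs and was the only one of the 5 with TGANTCA, the AP-1 motif that Fos and Jun proteins recognise, in capitals below.
Prl2c3: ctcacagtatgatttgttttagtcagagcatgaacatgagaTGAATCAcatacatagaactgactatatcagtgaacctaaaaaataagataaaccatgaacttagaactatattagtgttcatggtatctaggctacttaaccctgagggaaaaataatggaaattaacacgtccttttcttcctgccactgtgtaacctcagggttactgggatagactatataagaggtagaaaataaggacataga
TGANTCA was found on either strand in 6.75% of the windows of all genes. Neither the E-box CACGTG (6.02% of windows) nor the exact TATA letters TATAAA (12.4%) occurred in any of the 5 windows. Variants of these letters were not searched, and the Prl2c3 window holds the related run TATATAA near its end. The window of Hmga2 held none of the 5 motifs searched. The Prl2c3 window had 1 CG dinucleotide and the Hmga2 window 8, beside a median of 6 over all windows, while the Rhox windows had 4 or 5.

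Hmga2 (chromosome 10, 120361275 to 120476469, − strand) encodes an architectural protein that binds AT-rich DNA and is held down by let-7 microRNAs in adult tissue. It had 23, 13 and 13 UMIs in the LC tumors and 406, 617 and 209 UMIs in the IP + LC tumors. The levels were 39.6, 10.2 and 11.0 CPM in LC and 294, 360.1 and 152 CPM in IP + LC. With all tumors, this was the widest gap of the 8 genes, with the lowest IP + LC tumor well above the highest LC tumor. The means were 20.3 ± 16.8 and 269 ± 107 CPM (SD, n = 3 each), the ratio of means was 13.3, and the log2 fold change was 3.90 ± 0.53 (SE). Without LC replicate 1 the ratio of means was 25.4 and no longer the widest. It was 42.2 for Rhox2d, and Etv4 had no UMIs in the remaining LC tumors.

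Etv4 (chromosome 11, 101769742 to 101785371, − strand), an ETS transcription factor of the PEA3 group that is switched on by growth factor signalling through ERK, had 13, 0 and 0 UMIs in the LC tumors and 52, 41 and 25 UMIs in the IP + LC tumors. The levels were 22.4, 0 and 0 CPM in LC and 37.7, 23.9 and 18.2 CPM in IP + LC. LC replicate 1 lay within the IP + LC range, and no molecule was found in the other LC tumors. Relative to a floor of 3 UMIs per library, about the one-sided 95% counting limit for a count of 0, the IP + LC mean was at least 10.9-fold higher than LC replicates 2 and 3. Over all LC tumors the log2 fold change was 2.48 ± 0.98 (SE).

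Dusp9 (chromosome X, 73639419 to 73643514, + strand) encodes a cytoplasmic phosphatase of the placenta that removes phosphate from ERK. It had 24, 5 and 2 UMIs in the LC tumors and 41, 72 and 64 UMIs in the IP + LC tumors. The levels were 41.3, 3.92 and 1.69 CPM in LC and 29.7, 42.0 and 46.5 CPM in IP + LC. The groups overlapped through LC replicate 1. Unlike the other members, Dusp9 was lowest in IP + LC replicate 1 and highest in replicate 3. The log2 fold change was 1.78 ± 0.76 (SE), and the pooled ratio to LC replicates 2 and 3 was 13.9 (95% counting interval 6.61 to 35.1).

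Read together, all 8 genes had enough UMIs for the test, and 3 of them (Hmga2, Prl2c2 and Prl2c3) were higher in every IP + LC tumor than in every LC tumor, as were 21.6% of the 11240 genes tested. In the fit over all genes, 5 of the 8 (these 3, Rhox2d and Etv4) were among the 16.8% of genes called higher at an adjusted p below 0.1 by edgeR's quasi-likelihood test. The genes had been picked on this contrast, so the counts describe them and carry no weight as a test. Without LC replicate 1, 8 of 8 were higher in the IP + LC tumors than in both remaining LC tumors, as were 33.3% of 11748 genes, and 8 of 8 were called higher, as were 28.3%. The count fell to 2 of 8 without LC replicate 2, LC replicate 3, IP + LC replicate 1 or IP + LC replicate 2 (7.61% to 11.2% of all tested genes) and to 3 of 8 without IP + LC replicate 3 (11.1%). The median log2 fold change of the 8 genes was 2.28, and that of all tested genes was 0.02.

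The 8 genes did not share a single profile over the tumors. LC replicate 1 was above both other LC tumors for 8 of 8 genes, and it lay within or above the IP + LC range for 5 of them (Rhox5, Rhox2d, Rhox2h, Etv4 and Dusp9). The share of all tested genes with these placings was not computed, so the counts only describe the 8 genes. As a percentage of the IP + LC mean of the gene, LC replicate 1 was at 231% for Rhox2h, 105% for Dusp9, 103% for Rhox5, 90.1% for Rhox2d and 84.2% for Etv4. For Prl2c2 it was at 59.9%, for Prl2c3 at 40.1% and for Hmga2 at 14.7%. Among the 8, Hmga2 thus stood at the far end of a graded order. Both placings also occurred in cell cycle genes outside the 8. Cenpf was at 24.1 CPM in LC replicate 1 and at 150 to 190 CPM in the IP + LC tumors. Cdk1 was at 169 CPM in LC replicate 1 and at 130 to 170 CPM in the IP + LC tumors. In LC replicates 2 and 3 the mean was between 0 (Etv4) and 18.0% (Rhox2h) of the IP + LC mean.

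**Figure D2:**
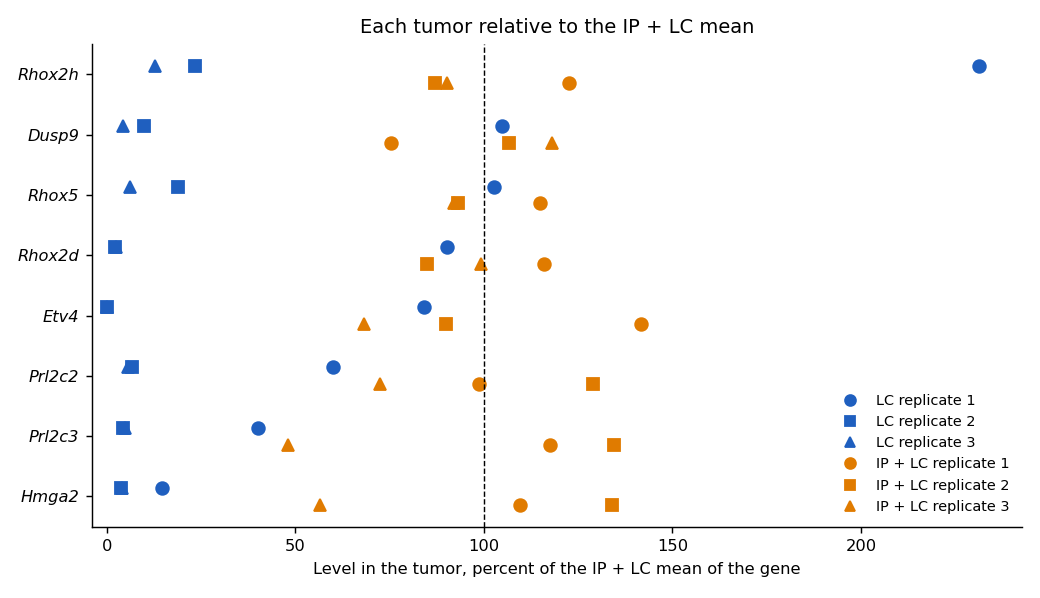
Level of each gene in each tumor as a percentage of the mean of the gene over the 3 IP + LC tumors (dashed line at 100), with genes ordered by LC replicate 1 (blue circles). LC replicate 1 runs from 14.7% for Hmga2 to 231% for Rhox2h, and LC replicates 2 and 3 lie at the left for every gene.

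The IP + LC tumors also differed among themselves. IP + LC replicate 3 was at 46.4% of the mean of the other IP + LC tumors for Hmga2, 38.1% for Prl2c3, 58.9% for Etv4 and 63.5% for Prl2c2. For Rhox5, Rhox2d and Rhox2h it was at 88.6%, 98.8% and 86.1%, and for Dusp9 at 130%. The tumor with less Hmga2 and proliferin transcript therefore had about as much of the Rhox transcripts as the others. Hmga2, Prl2c3 and Prl2c2, the 3 lowest in LC replicate 1 relative to the IP + LC mean, were among the 4 lowest in this tumor.

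Shares of the pooled UMIs of the 8 genes show this shift without any scaling between libraries; UMIs count molecules at the 3′ end and were not divided by length. Hmga2 made up 6.23% of these UMIs in LC replicate 1 (23 of 369, exact 95% interval 3.99% to 9.21%), 10.7% in LC replicate 2 and 22.8% in LC replicate 3. In the IP + LC tumors its share was 28.1%, 33.7% and 21.4%. The share in LC replicate 3 rested on 57 UMIs, with an interval of 12.7% to 35.8% that reached the IP + LC values, so no gap between the groups can be read from it. Rhox5 made up 54.7%, 67.2% and 43.9% in the LC tumors and 37.2%, 29.5% and 44.0% in the IP + LC tumors. The proliferin pair made up 16.8%, 12.3% and 22.8% in LC and 22.1%, 26.3% and 18.1% in IP + LC.

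**Figure D3:**
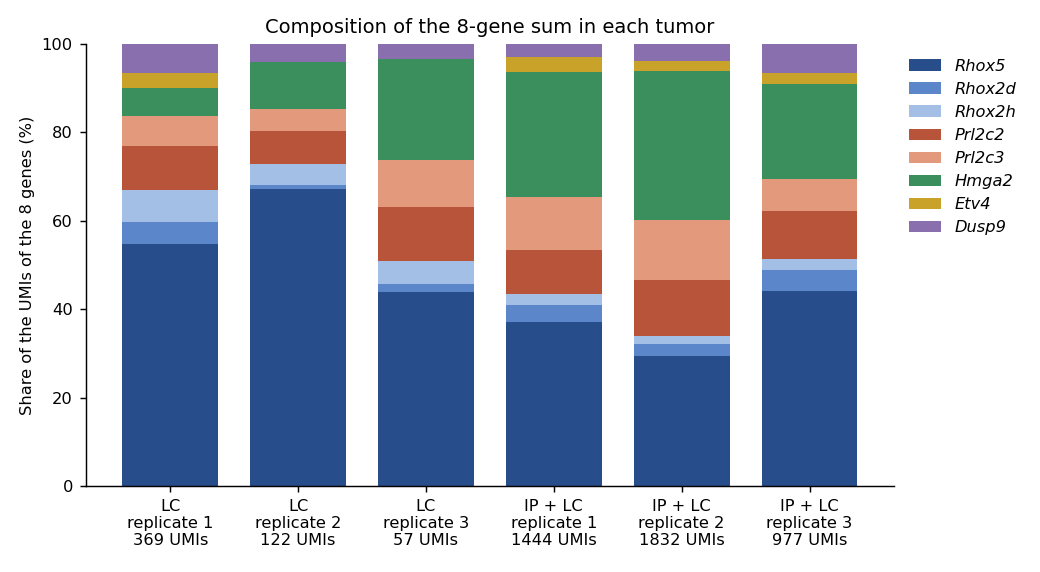
Share (%) of each gene in the pooled UMIs of the 8 genes in each tumor, with the number of UMIs under each bar. Hmga2 (green) takes 6.23% in LC replicate 1 and 21.4% to 33.7% in the IP + LC tumors, and Rhox5 (dark blue) takes 54.7% and 29.5% to 44.0%; the bar of LC replicate 3 rests on 57 UMIs.

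Transcript length moved with the levels of LC replicate 1. When the 11240 tested genes were split into 5 groups of about equal size by the length of their longest transcript, the median difference on log2(CPM + 4) between LC replicate 1 and the mean of the IP + LC tumors was 0.40 in the group of the shortest and −0.48 in the group of the longest. Rhox5 (754 bases), Rhox2d (685 bases), Rhox2h (779 bases), Prl2c2 (842 bases) and Prl2c3 (857 bases) were all in the shortest group, and Etv4 (2395 bases), Dusp9 (2722 bases) and Hmga2 (3810 bases) in group 2, 3 and 4. For Hmga2 the difference was −2.56, beside a median of −0.18 in its length group. Among the short genes it ranged from −1.12 for Prl2c3 to 1.08 for Rhox2h, both among genes of nearly equal length. IP + LC replicate 3 had no such trend over the length groups, with a median of 0.03 in the shortest and 0.01 in the longest, against the other IP + LC tumors, and its difference for Hmga2 was −1.08. Against the mean of LC replicates 2 and 3, the median difference of LC replicate 1 was 0.36 in the shortest group and −0.61 in the longest. The part of length in the profiles was not tested.

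By the root mean square distance between centred log2(CPM + 4) values over the 6 tumors, the nearest pair of members was Rhox2d and Etv4 (0.22), followed by Prl2c2 and Prl2c3 (0.30), and the farthest pair was Rhox2h and Hmga2 (1.53). Among 10129 other genes with at least 10 UMIs in each IP + LC tumor, the 10 genes nearest to the mean profile of the 8 were Cdc20 (distance 0.09), Mcm5, Aurka, Ier5l, Aurkb, Birc5, Ccl8, Cdk1, Plk1 and Asf1b (0.24). Cdc20, a mitotic activator of the anaphase-promoting complex, was at 74.0, 8.62 and 5.93 CPM in the LC tumors and at 114, 95.1 and 73.3 CPM in the IP + LC tumors. Ccl8, a chemokine that attracts monocytes, was at 150, 21.9 and 16.1 CPM in LC and at 223, 227 and 105 CPM in IP + LC. These genes were selected for the profile of the 8, so that a high level in LC replicate 1 was fixed by the choice. The nearest gene to Rhox5 alone was the chemokine gene Ccl12 (0.20) and the nearest to Hmga2 alone was Top2a (0.46), a topoisomerase of dividing cells; these last names were chosen after their values were seen.

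Markers of the other cells in the tissue were summed in the same way. The 10 proliferation markers summed to 742 CPM in LC replicate 1, to 149 and 163 CPM in LC replicates 2 and 3, and to 1256 to 1393 CPM in the IP + LC tumors. Of these markers, 8 rose by edgeR's quasi-likelihood test, as did 16.8% of all tested genes, among them Top2a by 2.96 ± 0.40 on the log2 scale (SE, adjusted p = 0.0016). The 8 macrophage markers summed to 2371 CPM in LC replicate 1, 917 and 662 CPM in the other LC tumors, and 2289 to 2893 CPM in IP + LC. C1qa, C1qc and Adgre1 rose and the other 5 did not pass. Both sums therefore placed LC replicate 1 above the other LC tumors, as the sum of the 8 genes did. For proliferation the factor was 4.76 relative to the mean of those tumors. Single markers varied in this, and Mki67 was at 24.1 CPM in LC replicate 1, beside 18.0 and 20.3 CPM in the other LC tumors. Cenpf, at 24.1 beside 10.2 and 27.1 CPM, and the macrophage gene Cd14, at 70.6 beside 77.6 and 55.9 CPM, were not above both. The remaining markers were. Without LC replicate 1, 10 of 10 proliferation markers and 6 of 8 macrophage markers rose, beside 28.3% of all tested genes.

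Airway and type 2 alveolar markers placed LC replicate 1 with the other LC tumors instead. The 7 airway markers, led by the club cell gene Scgb1a1, summed to 49941 CPM in it, within the LC range of 49382 to 58325 CPM and far above the IP + LC range of 3381 to 7256 CPM, and 7 of 7 fell. The 8 markers of type 2 alveolar cells, led by the surfactant gene Sftpc, summed to 36019 to 44855 CPM in LC and to 6477 to 11745 CPM in IP + LC, and 7 of 8 fell. Markers of endothelium (8 of 8), smooth muscle (6 of 6), type 1 alveolar cells (6 of 7), erythroid cells (4 of 4 tested), mesothelium (3 of 3 tested), B cells (4 of 5) and neutrophils (3 of 6) also fell, as did 19.6% of all tested genes. LC replicate 1 was not at the level of the other LC tumors for all of these. Its erythroid sum of 1743 CPM lay inside the IP + LC range of 769 to 2146 CPM, against 3951 and 7431 CPM in the other LC tumors. Its endothelial, mesothelial, neutrophil and smooth muscle sums were 0.56, 0.52, 0.56 and 0.68 times the mean of the other LC tumors. Its type 1 alveolar and B cell sums were 0.90 and 1.06 times that mean. Among 7 fibroblast markers, 2 rose and 4 fell, and the 5 tested T cell markers had edgeR adjusted p-values from 0.171 to 0.713. Krt8, Krt18, Krt19, Epcam and Cdh1, which mark carcinomas of epithelial type and also normal lung epithelium, summed to 644 to 763 CPM in LC and 428 to 492 CPM in IP + LC, and 4 of these 5 fell. Xist, which is made by female cells, was at 8.61 CPM in LC replicate 1 and 16.7 CPM in IP + LC replicate 3, and between 87.0 and 148 CPM in the other 4 tumors. The summed level of every marker list was above 0 in all tumors, although the T cell genes Cd3e and Cd8a had 0 UMIs in LC replicate 1 and the erythroid gene Alas2 had 0 UMIs in LC replicate 1 and in IP + LC replicate 1. The part of these cells in the levels of the 8 genes was not tested.

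**Figure D4:**
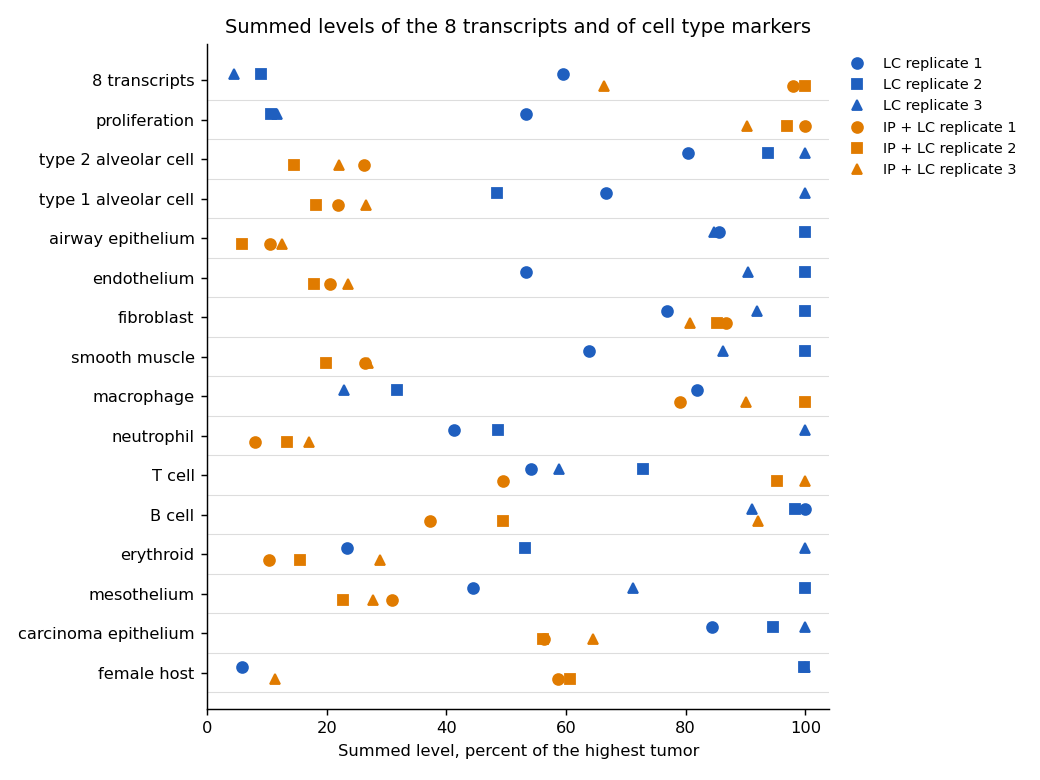
Summed level of the 8 transcripts and of each marker list in each tumor, as a percentage of the highest tumor for that list (linear axis; female host is Xist alone). LC replicate 1 (blue circle) is far above the other LC tumors for the 8 transcripts (635 CPM against 95.6 and 48.3), proliferation and macrophages, and lies with them for airway and type 2 alveolar markers.

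Genes of related function were compared between the groups by the fit over all genes, with the 8 members left out. In these lists, 69 other genes had enough UMIs, of which 24 rose and 13 fell at an adjusted p below 0.1 by edgeR's quasi-likelihood test, 37 in all, beside 36.4% of all tested genes. By direction, 16.8% of all tested genes rose and 19.6% fell, and the counts of each list below stand beside these shares. Of these 37 genes, 19 passed in each of the 6 fits that leave out 1 tumor, 6 passed in 5 of them, and 12 in fewer. Each of the 37 also passed without LC replicate 1.

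Among 21 ETS factor genes other than Etv4, 2 rose and 5 fell. Without LC replicate 1, 4 rose and 7 fell, beside 28.3% and 28.7% of all tested genes. Etv6, a repressor of the family, rose by 1.49 ± 0.23 (SE, edgeR adjusted p = 0.00258), and Elf4 by 0.93 ± 0.34 (edgeR adjusted p = 0.0729), which passed in only 1 of the 6 fits without 1 tumor. Erg, a factor of endothelial cells, fell by 1.74 ± 0.22 on the log2 scale (edgeR adjusted p = 0.00136), beside endothelial markers that also fell. Elf5, an epithelial factor, fell by 2.52 ± 0.48 and Ets2 fell by 0.74 ± 0.18. Of the other PEA3 genes, Etv5 passed the test and Etv1 did not. Etv5 was at 17.2, 73.6 and 55.1 CPM in the LC tumors and at 23.9, 20.4 and 25.4 CPM in the IP + LC tumors, with its lowest level in LC replicate 1, the LC tumor in which Etv4 was found. It fell by 1.15 ± 0.40 on the log2 scale (SE, edgeR adjusted p = 0.0602), a call that held only without LC replicate 1 among the 6 fits without 1 tumor (edgeR adjusted p of 0.133 to 0.270 in the other 5). Etv1 was at 13.8, 21.2 and 11.9 CPM in LC and at 26.8, 26.3 and 21.8 CPM in IP + LC, without overlap and in the direction of Etv4, with a log2 fold change of 0.65 ± 0.29 (edgeR adjusted p = 0.132). Whether either gene differed from Etv4 in its change was not tested. The median over the 21 genes was 0.04.

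Of 8 MAP kinase phosphatase genes other than Dusp9, 5 rose and 1 fell. Dusp5, a nuclear ERK phosphatase, rose from 12.3 ± 3.46 to 30.0 ± 2.87 CPM (SD, n = 3 each; log2 fold change 1.35 ± 0.28, edgeR adjusted p = 0.0092). Dusp2 rose by 1.38 ± 0.30 and Dusp10, which acts on JNK and p38, by 1.23 ± 0.35. The call of Dusp10 was lost without LC replicate 3 (edgeR adjusted p = 0.111). Dusp1, an immediate early phosphatase, fell by 1.06 ± 0.27 and passed in 4 of the 6 fits without 1 tumor, with an edgeR adjusted p of 0.105 when IP + LC replicate 1 was left out and 0.110 when IP + LC replicate 2 was. In contrast to Dusp9, Dusp2 was at 12.1 CPM in LC replicate 1, beside 14.1 and 11.9 CPM in the other LC tumors.

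The feedback and output genes of the ERK pathway were mixed, with 8 of 17 higher and 4 lower. The cyclin gene Ccnd1 rose from 39.5 ± 9.26 to 288 ± 30.2 CPM (SD, n = 3 each; log2 fold change 2.84 ± 0.24, edgeR adjusted p = 0.000565). Fosl1, a subunit of AP-1, rose by 3.34 ± 0.57 (edgeR adjusted p = 0.00395), and like Hmga2 it was lowest among IP + LC tumors in replicate 3, at 35.6 CPM against 68.2 and 77.0 CPM. Epha4, Spry1 and Egr1 fell by 1.94 ± 0.49, 1.62 ± 0.42 and 0.85 ± 0.25. Epha4 passed in each of the 6 fits without 1 tumor. Spry1 passed in 5 of them, with an edgeR adjusted p of 0.102 without LC replicate 2. Egr1 passed in 3 of them, and its edgeR adjusted p was 0.141 when LC replicate 2 was left out, 0.149 when IP + LC replicate 1 was and 0.144 when IP + LC replicate 2 was. Spry1 is a feedback inhibitor of the pathway and Egr1 an immediate early transcription factor.

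The list around Hmga2, which holds its paralog, the LIN28 and let-7 pathway and the IGF2BP proteins, had 7 genes that rose and 1 that fell out of 12 tested. Hmga1, the paralog, was at 15.5, 3.13 and 5.08 CPM in the LC tumors and at 35.5, 39.1 and 25.4 CPM in the IP + LC tumors, so the groups did not overlap (log2 fold change 2.34 ± 0.46, edgeR adjusted p = 0.00706). Myc rose by 2.41 ± 0.27 (edgeR adjusted p = 0.000945), and Igf2bp2, an RNA-binding protein whose gene is a known target of Hmga2, by 1.81 ± 0.28 (edgeR adjusted p = 0.00248). Arid3b fell by 1.02 ± 0.32 and passed in only 1 of the 6 fits without 1 tumor. Lin28a, which blocks let-7 in embryonic cells, had 0 UMIs in all tumors but IP + LC replicate 3, where it had 2, and Lin28b had 8 UMIs in LC replicate 3 and at most 1 in any other tumor. The median of the 12 genes was 0.89, beside 0.02 for all tested genes.

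Other oncofetal and placental genes were mostly too rare for a test or fell. Of 6 oncofetal or imprinted growth genes tested, 3 fell and the other 3 did not pass. Those that fell were Cdkn1c, a cell cycle inhibitor, with a log2 fold change of −2.29 ± 0.48, the imprinted RNA gene Airn with −1.36 ± 0.40 and Gpc3, a cell surface proteoglycan, with −0.99 ± 0.38. Cdkn1c passed in each of the 6 fits without 1 tumor, Airn in 3 and Gpc3 in 2 of them, and of the 3 genes Cdkn1c alone passed without LC replicate 2 or without IP + LC replicate 2. Without LC replicate 1, 7 of 7 tested genes of this list fell, as did 28.7% of all tested genes. Igf2 was not analysed here, and H19 and Afp had at most 3 and 9 UMIs in any tumor. Of 20 placental genes in the tables, 18 had too few UMIs for a test, with Tpbpa, a spongiotrophoblast marker, at 1 UMI in all. The 2 tested were Plac8, also a gene of immune cells, which rose by 0.83 ± 0.22 but had an edgeR adjusted p of 0.104 without IP + LC replicate 2, and Elf5, which fell. Of 32 germline genes, 30 had too few UMIs. Dppa2, a gene of pluripotent and germ cells, was at 12.1, 2.35 and 2.54 CPM in LC and at 11.6, 13.4 and 13.1 CPM in IP + LC. LC replicate 1 was placed as for Rhox5, but the LC levels of Dppa2 rested on only 7, 3 and 3 UMIs. Dppa2 rose by 1.50 ± 0.53 (edgeR adjusted p = 0.0656), which held in 1 of the 6 fits without 1 tumor. Of 5 enzymes of DNA methylation, Uhrf1 rose by 2.16 ± 0.34 and the maintenance methyltransferase gene Dnmt1 by 1.16 ± 0.24, and Dnmt3a, Tet2 and Tet3 did not pass. Dnmt3a passed in 2 of the 6 fits without 1 tumor, with an edgeR adjusted p of 0.0615 without LC replicate 1 and 0.0313 without LC replicate 3. Without LC replicate 1, 3 of 6 tested genes of this list rose and 1 fell, beside 28.3% and 28.7% of all tested genes.

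**Figure D5:**
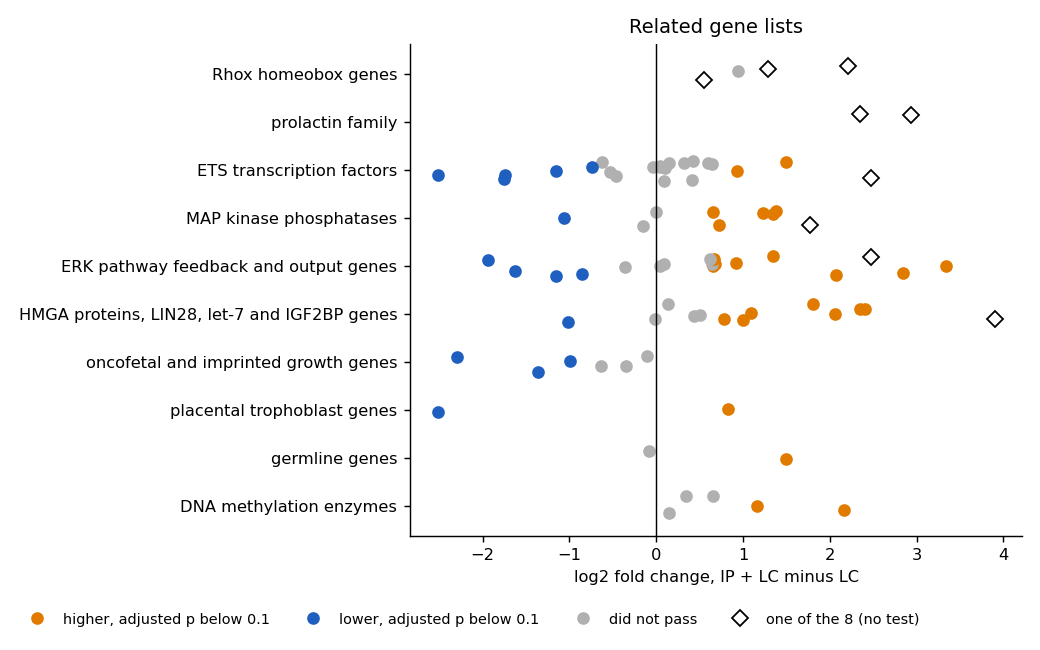
Log2 fold change (IP + LC minus LC) of each tested gene in the related lists; orange and blue points passed edgeR's test upward and downward, grey points did not pass, and open diamonds are the 8 genes, shown without a test. Hmga2 (3.90) lies farthest to the right, while the oncofetal list holds points below 0 only.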

How the data were processed

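The deposited tables, 1 per tumor (6 in all), hold whole-number counts of UMIs per gene, not normalized. The authors extracted the UMIs with UMI-tools 1.1.1, trimmed reads with Trim Galore 0.6.7, aligned the 81 bp inserts to GRCm38 with HISAT2 2.2.1, assigned them with featureCounts 2.0.1 and counted each different UMI once per gene. The submitters' processing notes also name DESeq2. The annotation release and the use of strand are not given in the sources used here. Reads from near-identical copies may be lost or split in such counting.

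All 31130 genes were counted; filterByExpr (minimum count 10, total 15) kept 11240. Libraries were scaled by TMM (factors 0.905 to 1.07), and IP + LC was compared with LC by edgeR 4.0.16 (quasi-likelihood test, no block, R 4.3.3), with Benjamini-Hochberg adjustment over all tested genes at the study's limit of 0.1. SEs were derived from the fold change and the F statistic and are approximate. Shares have exact binomial intervals (95%). Length, likeness and figures used log2(CPM + 4) or CPM. Coordinates and transcripts came from GENCODE M21 (GRCm38), upstream windows from RefSeq (GRCm38.p6). The procedure was tested on simulated data.

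The members and gene lists were chosen with earlier results of these data known. Named genes were the 8 members, the 3 smallest p-values per list and direction, the 10 nearest profiles and the most abundant markers; further names, such as Etv5 and the Lin28 genes, were added after seeing values. Alternatives were other scalings, filters and depth, DESeq2 1.42.0, voom of limma 3.58.1, a replicate block and each tumor left out. List genes without a row, including 4 Y chromosome markers, were not analysed here.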

Additional observations from a re-analysis of the deposited data

How the results depend on the processing

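Under 15 alternatives, 111 of 113 log2 fold changes of the 8 genes were above 0, and 99 kept their direction and moved by less than 1 SD (each gene's pooled SD within the groups, on the log2(CPM + 4) scale). That SD includes the distance of LC replicate 1 from the other LC tumors, so it allows wide moves. Rhox5 at 2.25 with limma voom, beside 1.29 in the fit of the report, was still within 1 SD. The exceptions in direction were both Rhox2h (0.55 with all tumors), at −0.027 without LC replicate 2 and −0.068 without LC replicate 3. Leaving out each tumor in turn gave 1.13 to 3.76 for Dusp9, 1.66 to 8.21 for Etv4, 3.53 to 4.67 for Hmga2, 1.79 to 4.03 for Prl2c2, 2.36 to 4.46 for Prl2c3, 1.47 to 5.25 for Rhox2d, −0.068 to 2.43 for Rhox2h, 0.75 to 2.98 for Rhox5 and 1.37 to 3.72 for the log2 ratio of the summed level (1.86 with all tumors). Each highest value was the one without LC replicate 1; that of Etv4, with 0 UMIs left in the LC group, depends on the prior count and is no bound. With limma voom, Dusp9 was at 2.98, Etv4 at 4.03, Rhox2d at 3.59 and Rhox2h at 1.71, and with libraries thinned to 592733 UMIs Etv4 was at 1.30. Of the 8 genes, 5 were called higher in the fit of the report (16.8% of all tested genes), 3 by DESeq2 (12.7%), 8 by limma voom (2144 of 11240 genes), 3 of 7 tested after thinning (11.7%) and 2 to 8 when 1 tumor was left out (7.61% to 28.3%). The cause was not tested.

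Over all genes, 4088 passed, 2357 after thinning and 2265 (without IP + LC replicate 2) to 6691 (without LC replicate 1) when 1 tumor was left out, with 2585 without LC replicate 2 and 2660 without IP + LC replicate 1. Of the 69 list genes 37 passed, 20 of 36 with at least 10 UMIs in every library, 23 of 57 after thinning and 23 (without IP + LC replicate 2) to 49 (without LC replicate 1) when 1 tumor was left out. Scaling by library size alone moved the median log2 fold change of all genes by 0.16 and the split from 1885 higher and 2203 lower to 2520 and 1800. Upper quartile scaling gave 1612 and 2356. Every member was positive under each scaling. The filter of at least 10 UMIs in every library kept 2 of the 8 genes.

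Deviations from the group means correlated at 0.03, −0.12 and 0.11 within the replicate numbers 1, 2 and 3. Between tumors of unlike number the correlations ran from −0.14 to 0.13. With 3 tumors per group, these values cannot decide whether the numbers pair the tumors. With a replicate block, 3410 genes, 32 list genes and 6 of the 8 members (14.2% of all tested genes higher) passed. The small library of LC replicate 1, with 3 UMIs at 5.17 CPM, limits every LC mean.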
